A study of Mus musculus with 4 samples.

Results

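The immediate early and AP-1 genes examined here were the Fos family (*Fos*, *Fosb*, *Fosl1* and *Fosl2*), the Jun family (*Jun*, *Junb* and *Jund*), their partner *Atf3*, the zinc finger factor gene *Egr1*, and *Ier2*. Their probes were those whose accession belongs to these 10 symbols in mouse RefSeq, without reference to the signal, which gave 11 probes for 10 of the 20832 genes named on the array. *Fosl2* had a pair of probes and every other gene had 1. Immediate early genes are transcribed within minutes of a stimulus such as serum, a growth factor or stress, without the need for new protein synthesis, and their mRNAs are short-lived. Fos and Jun proteins pair through a leucine zipper to form AP-1, which binds DNA at TGANTCA, while Egr1 binds GC-rich sites through zinc fingers. Growth factor receptors, Met among them, reach these genes through the Ras and ERK cascade, whose kinases act on serum response factor and its ETS partners, and AP-1 is known in melanoma for its part in proliferation, invasion and the response to stress.

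The mouse melanoma line B16-F10 was separated by flow cytometry, according to Met on the cell surface, into Met-low and Met-high cells, and each population was then kept for 3 days in RPMI medium with heat-inactivated fetal bovine serum. Both populations come from this 1 line, and the labels name no treatment and no difference between them other than the sort. For each population, RNA of 2 separately prepared samples was hybridised to 1-colour Agilent mouse arrays. Values are the log2 of the background-corrected intensity relative to the 75th percentile of the array, and ratios are the mean log2 signal of the Met-high arrays minus that of the Met-low arrays. Levels of different probes were not set against each other. With 2 arrays per population, the number of arrays limits the precision. The p-values come from limma, which draws each gene's spread between these samples toward that of all genes fitted.

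On the 4 arrays, between 50.01% and 53.63% of 43020 spots were well above background, 0 were saturated, and the 75th percentile ran from 858 to 1331. They shared 1 slide and 1 scan, with Met-low cells at positions 1 and 2 and Met-high cells at 3 and 4, so that position and population cannot be told apart. *Met* mRNA (NM_008591) had log2 signals of -0.26 and -0.89 in Met-low and of 1.03 and -0.43 in Met-high cells, and the populations overlapped. All 10 melanocyte and melanoma markers, *Tyr*, *Tyrp1*, *Dct*, *Pmel*, *Mlana*, *Sox10*, *Mitf*, *Pax3*, *Slc45a2* and *Gpnmb*, were well above background on every array. Of 6 fibroblast markers, 1 (*Col1a2*) was well above background on every array and 3 (*Pdgfra*, *Lum* and *Dcn*) on none. The summed fibroblast signal relative to the 75th percentile was 0.628 and 0.685 in Met-low against 0.361 and 0.318 in Met-high cells, and *Col1a2* had a log2 ratio of -1.10 (Benjamini-Hochberg adjusted p = 0.0311 in limma). That call was lost whether Met-low replicate 1, Met-low replicate 2, Met-high replicate 1 or Met-high replicate 2 was left out (adjusted p between 0.0640 and 0.101). Without *Col1a2* the sum was 0.119 and 0.0817 in Met-low against 0.112 and 0.0489 in Met-high cells, and these overlapped. Of the leukocyte markers with a probe, *Cd3e* was well above background on every array and *Ptprc* and *Lyz2* on none. Of the endothelial markers, *Kdr* was well above background on every array, with log2 signals of 2.65 and 2.43 in Met-low and of 3.07 and 2.73 in Met-high cells, *Pecam1* on 3 and *Cdh5* on none. Of the keratinocyte markers *Krt14* was on 3 arrays, *Krt5* on 2 and *Krt1* on none. The part of these markers in the results was not tested.

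*Egr1* was the only one of the 10 genes called different between the populations at an adjusted p under 0.05, with a mean signal 2.79-fold higher in Met-high cells. *Jun* and *Atf3* had mean signals 1.88-fold and 1.80-fold higher in Met-low cells and *Ier2* a mean signal 1.52-fold higher in Met-high cells, and these 3 did not pass the adjusted threshold. *Fos*, *Fosb*, *Fosl2* and *Jund* overlapped between the populations, and *Fosl1* was well above background on a single array. RNA came from whole populations, in which fewer cells with a transcript and less of it per cell cannot be told apart.

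A gene was tested where both arrays of a population, or of both populations, gave a signal well above background, which held for 9 of the 10 genes, *Fosl1* being the exception, and for 11958 genes in all. Limma called 1 of the 9 higher in Met-high and 0 higher in Met-low cells, against 1.95% and 3.82% of all genes tested (233 and 457 genes, or 140 and 595 with the 75th percentile taken over detected probes alone). At an unadjusted p under 0.05 there were 4 of the 9, namely *Egr1*, *Atf3*, *Jun* and *Ier2*, against 26.2% of all genes tested. The mean of Met-high cells exceeded that of Met-low cells more than 2-fold for 1 of the 9 (*Egr1*) against 2.43% of all genes tested, and the reverse held for 0 against 5.29%. Both Met-low arrays lay above both Met-high arrays for 2 genes (*Jun* and *Atf3*) against 22.6% of all genes tested. The opposite order held for 3 genes (*Egr1*, *Ier2* and *Junb*) against 35.8%, so both shares without overlap were near those over all genes. *Junb* was well above background on 1 Met-low and 2 Met-high arrays. It was therefore tested only through the population where it is higher, and its order is no support for a difference. With the 75th percentile over detected probes the median log2 ratio over all genes was -0.05 in place of 0.10, and of the 9 members *Fos* alone changed sign under that scaling.

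**Figure D1:**
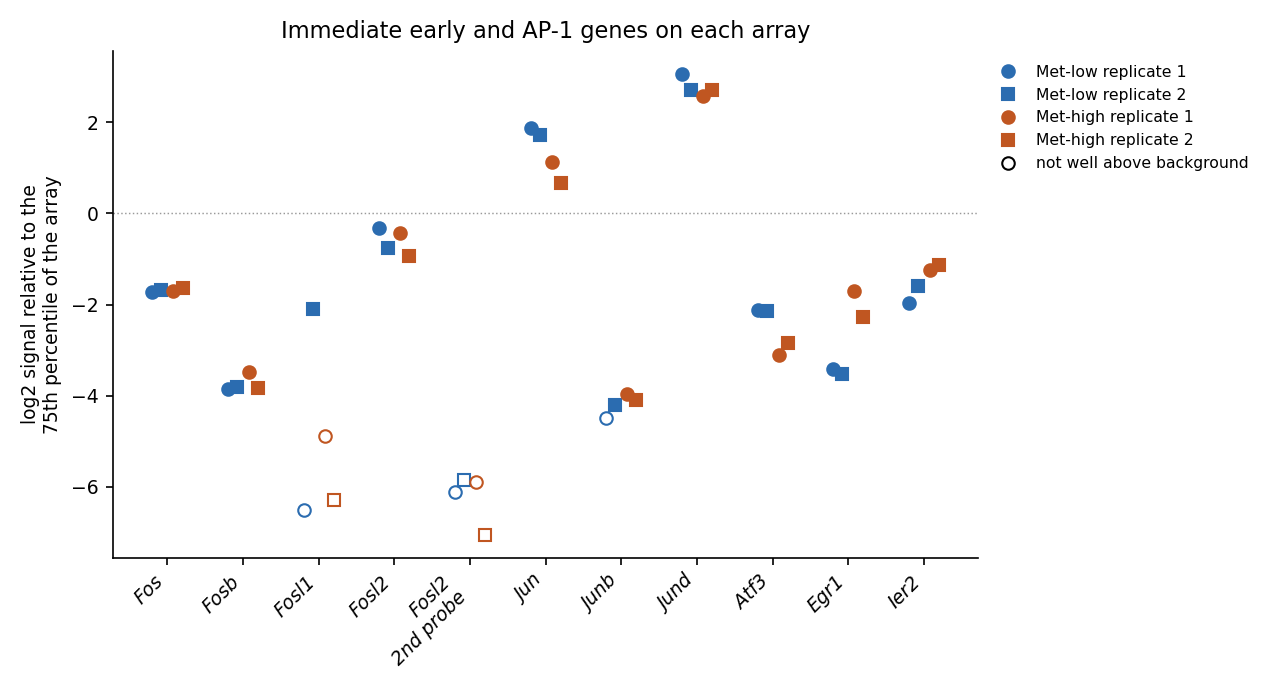
Log2 signal relative to the 75th percentile of the array (vertical axis) for each probe of the 10 genes (horizontal axis), 1 point per array, with Met-low in blue, Met-high in orange and open symbols where the probe was not well above background. Points are to be compared within a probe: the Met-high arrays of *Egr1* sit at -1.71 and -2.27 above the Met-low arrays at -3.42 and -3.52, and the *Fosl1* points spread from -6.51 to -2.11.

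**Figure D2:**
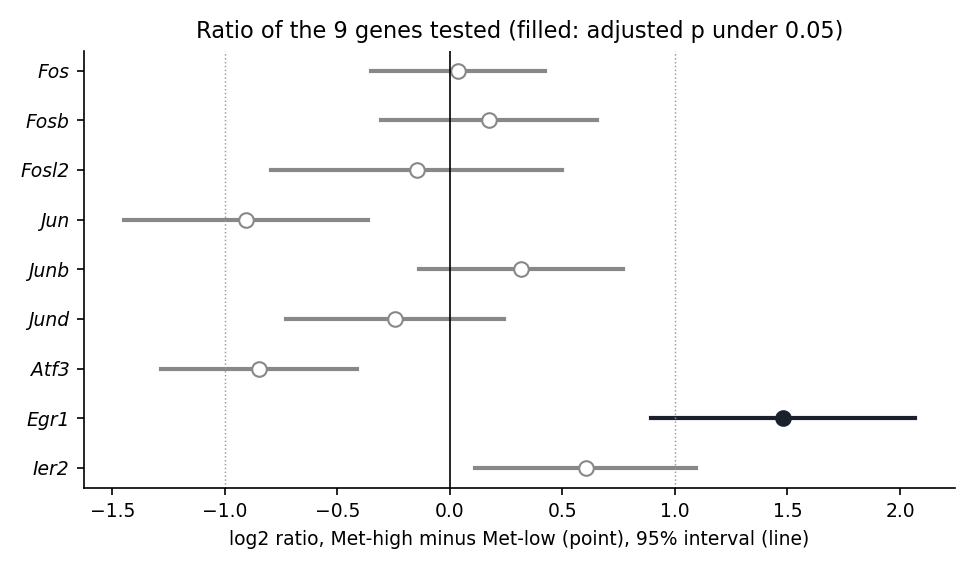
Log2 ratio of Met-high minus Met-low (horizontal axis) for the 9 genes tested, with the 95% interval from limma as a line and 2-fold marked by dotted lines. The filled point is *Egr1* at 1.48, and the intervals of *Jun*, *Atf3* and *Ier2* also exclude 0 before adjustment over all genes.

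*Fos* encodes the founding member of its family and the partner with which Jun forms the best known AP-1 dimer. The array carried its probe (NM_010234) in 10 spots, so the spread of repeated spots on 1 array could be read directly. Mean intensities were 286 and 416 in Met-low cells, against 265 and 357 in Met-high cells, which correspond to log2 signals of -1.72 and -1.68 in Met-low and of -1.70 and -1.64 in Met-high cells. The 4 arrays lay close together and the populations overlapped. The spots of one array had a coefficient of variation of 9.13% and 3.39% in Met-low and of 4.74% and 3.53% in Met-high cells, with 1 spot of Met-low replicate 2 left out because it was flagged as an outlier. The population means were -1.70 ± 0.03 and -1.67 ± 0.04 (SD, n = 2). Within an array the spots had an SD between 0.05 and 0.14 on the log2 scale. That is the spread of single spots, and not the error of their mean or the spread between samples. The log2 ratio of *Fos* was 0.03 (95% interval -0.35 to 0.42, adjusted p = 0.905 from limma), and it was -0.11 with the 75th percentile over detected probes.

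**Figure D3:**
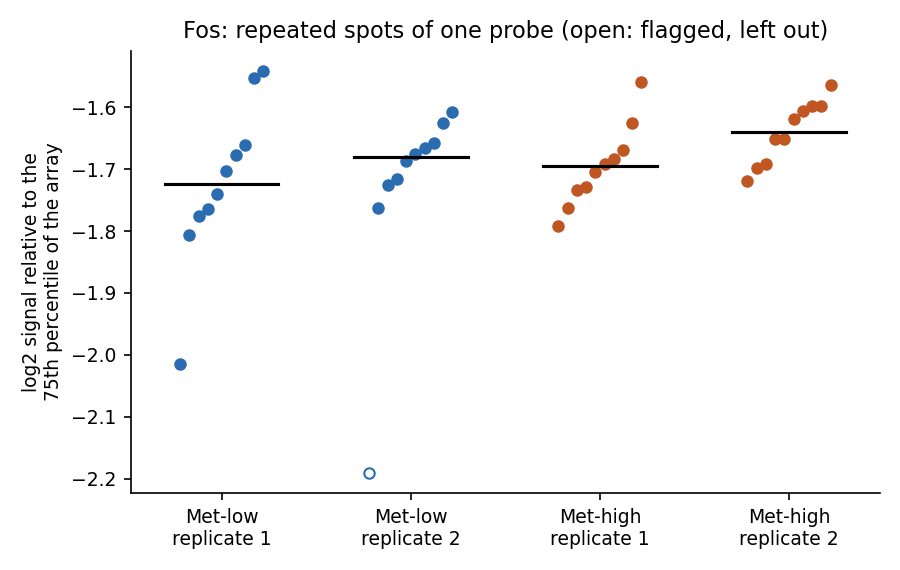
Log2 signal relative to the 75th percentile of the array (vertical axis) for the repeated spots of the *Fos* probe on each of the 4 arrays (horizontal axis), with the mean of the spots used as a black line and the flagged spot open. The means run from -1.72 to -1.64 and the spots of every array overlap those of the other arrays.

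The sequence just upstream of *Fos*, *Jun* and *Atf3* is shown because these genes are known to answer to cyclic AMP and stress through elements of the CRE type. RefSeq windows of 250 bases before the transcript start (build GRCm38.p6) were at hand for 7 of the 10 genes, and *Egr1*, *Fosl1* and *Ier2* had none in the table used. *Fos* is read from chr12:85473640-85473889 on the plus strand, *Jun* from chr4:95052223-95052472 and *Atf3* from chr1:191183334-191183583 on the minus strand, each 5′ to 3′ in the direction of transcription. Capitals mark the CRE core TGACG on either strand in *Fos* and *Atf3*, and the CRE-like TGACATCA in *Jun*.
Fos: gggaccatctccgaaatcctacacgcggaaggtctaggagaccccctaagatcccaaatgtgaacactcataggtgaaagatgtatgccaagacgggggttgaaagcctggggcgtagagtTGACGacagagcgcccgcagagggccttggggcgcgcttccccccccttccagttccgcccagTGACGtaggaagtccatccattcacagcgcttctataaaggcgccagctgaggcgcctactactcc
Jun: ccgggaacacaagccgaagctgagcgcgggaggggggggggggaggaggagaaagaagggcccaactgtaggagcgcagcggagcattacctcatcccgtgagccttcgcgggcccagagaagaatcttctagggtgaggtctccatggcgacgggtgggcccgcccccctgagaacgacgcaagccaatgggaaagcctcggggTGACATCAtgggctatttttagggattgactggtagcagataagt
Atf3: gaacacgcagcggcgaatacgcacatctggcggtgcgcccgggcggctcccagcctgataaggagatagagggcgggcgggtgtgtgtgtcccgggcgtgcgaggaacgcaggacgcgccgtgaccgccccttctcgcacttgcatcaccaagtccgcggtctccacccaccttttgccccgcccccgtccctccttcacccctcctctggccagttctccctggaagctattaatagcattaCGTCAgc
*Fos* holds the core at -129 to -125 and at -66 to -62 from the start, *Atf3* holds it on the opposite strand at -7 to -3, and the *Jun* site lies at -45 to -38. Over the 7 windows, the core TGACG was in 4 (*Fos*, *Fosb*, *Junb* and *Atf3*), while 17.8% of 32851 mouse windows of the same length hold it on 1 strand or the other. The full CRE TGACGTCA, which contains that core, was in 0 of the 7 and in 1.55% of all windows. The AP-1 site TGANTCA was in 0 of the 7 (6.75% of all windows), as were the Egr site GCGTGGGCG (0.536%) and the CArG box bound by serum response factor (1.47%). The ETS-type sequence CCGGAA was also in 0 of the 7 (12.0%). Its shorter part GGAA, which the *Fos* and *Atf3* windows hold, was not counted. TGACATCA was in *Jun* alone of the 7 and in 2.93% of all windows, and it was added to the search after the windows had been read. The windows of *Fos*, *Jun* and *Atf3* were 58.4%, 61.2% and 65.2% G and C, against a median of 52.4% over all windows. A match describes letters in these windows and not a bound site. Sequence further upstream than 250 bases, or past the start, was not searched, so a motif missing here may lie outside the window.

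*Fosb* encodes a close relative of Fos that also has a shorter, long-lived splice form. Its probe (NM_008036) had intensities of 65.5 and 95.1 in Met-low and of 77.5 and 77.7 in Met-high cells, or log2 signals of -3.85, -3.81, -3.47 and -3.84 in the same order. Only Met-high replicate 1 stood above the rest, and Met-high replicate 2 lay between the Met-low arrays. The log2 ratio was 0.17 (95% interval -0.31 to 0.65, adjusted p = 0.597 from limma), and without Met-high replicate 1 it was -0.01.

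*Fosl1* encodes Fra-1, a Fos relative without a transactivation domain of the Fos type and known for its link to invasion in carcinoma and melanoma cells. The probe (NM_010235) had an intensity of 10.3 on Met-low replicate 1 and of 309 on Met-low replicate 2, against 29.0 and 14.3 on the Met-high arrays. It was well above background on Met-low replicate 2 alone, so that 1 array set it apart from the other 3. The log2 signals of the Met-low arrays, -6.51 and -2.11, were 4.40 apart, a gap of 21.2-fold between replicates. Among 12647 genes well above background on at least 1 Met-low array, 24 others had a gap as large, and the median gap was 0.23. Since neither population had both arrays well above background, *Fosl1* was left out of the comparison, and no fold or test is given for it.

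*Fosl2* encodes Fra-2, the fourth member of the family. Its brighter probe (NM_008037) had intensities of 760 and 792 in Met-low and of 639 and 583 in Met-high cells, with log2 signals of -0.31, -0.75, -0.43 and -0.93. In both populations replicate 1 lay above replicate 2, by 0.44 in Met-low cells and by 0.51 in Met-high cells, and the populations overlapped. The log2 ratio was -0.15 (95% interval -0.79 to 0.50, adjusted p = 0.743 from limma). It was 0.07 without Met-low replicate 1 and 0.10 without Met-high replicate 2. The other *Fosl2* probe, with intensities of 13.6, 22.9, 14.5 and 8.41, was not well above background on any array and gave no ratio.

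*Jun* encodes c-Jun, the target of the JNK kinases and the strongest activator of its family. Intensities of its probe (NM_010591) were 3473 and 4398 in Met-low and 1879 and 1757 in Met-high cells. On the log2 scale the arrays stood at 1.88 and 1.72 in Met-low and at 1.13 and 0.66 in Met-high cells, so both Met-low arrays lay above both Met-high arrays. The means were 1.80 ± 0.11 and 0.90 ± 0.33 (SD, n = 2). The log2 ratio of *Jun* was -0.91 (standard error, SE, 0.21, 95% interval -1.45 to -0.36), with an adjusted p of 0.0765 from limma after Benjamini-Hochberg adjustment over all genes (0.00728 unadjusted). Without Met-high replicate 1 the ratio was -1.14 and passed (adjusted p = 0.0469). Over 15 alternatives *Jun* kept its sign, with an adjusted p between 0.0158 and 0.273, and passed the threshold in 4.

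*Junb* encodes JunB, which acts against c-Jun in several settings. Its probe (NM_008416) was well above background on 3 arrays but not on Met-low replicate 1, with intensities of 42.0 and 72.4 in Met-low and of 54.7 and 65.4 in Met-high cells. With log2 signals of -4.49, -4.20, -3.97 and -4.09, the Met-high arrays both lay above the Met-low arrays. The log2 ratio of 0.32 was nevertheless within its error (95% interval -0.14 to 0.77, adjusted p = 0.320 from limma).

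*Jund* encodes JunD, the member of the family that is made in resting as well as in growing cells. Intensities of its probe (NM_010592) were 7879 and 8704 in Met-low and 5110 and 7268 in Met-high cells. Log2 signals were 3.06 and 2.71 in Met-low and 2.57 and 2.71 in Met-high cells, and the second arrays of the populations coincided. The log2 ratio was -0.24 (95% interval -0.73 to 0.24, adjusted p = 0.455 from limma), and it was -0.07 without Met-low replicate 1. Among the 3 Jun genes, *Jun* alone had Met-low arrays that lay clear of the Met-high arrays on the high side. Differences between the ratios of family members were not tested.

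*Atf3* encodes a stress-induced partner of Jun proteins that often represses its targets. Its probe (NM_007498) read 217 and 300 in Met-low and 99.02 and 154 in Met-high cells. The log2 signals were -2.12 and -2.15 in Met-low and -3.12 and -2.85 in Met-high cells, so the Met-low arrays nearly coincided and both lay above the Met-high arrays. *Atf3* had means of -2.13 ± 0.02 and -2.98 ± 0.19 (SD, n = 2) and a log2 ratio of -0.85 (SE 0.17, 95% interval -1.29 to -0.41). The p was 0.00375 before and 0.0561 after Benjamini-Hochberg adjustment over all genes in limma, so the call was missed. It passed in 3 of 15 alternatives, among them the 75th percentile over detected probes (-0.996, adjusted p = 0.0363), while normexp background correction gave -0.51 (adjusted p = 0.0976).

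*Egr1* encodes a zinc finger transcription factor that is among the first genes to follow ERK activity. Its probe (NM_007913) had intensities of 87.9 and 116 in Met-low and of 263 and 230 in Met-high cells, and was well above background on all 4 arrays. Log2 signals were -3.42 and -3.52 in Met-low and -1.71 and -2.27 in Met-high cells. The Met-high arrays both lay above the Met-low arrays, and the gap between the populations, from -3.42 to -2.27, was wider than the gap between the replicates of either. Means were -3.47 ± 0.07 and -1.99 ± 0.40 (SD, n = 2). The log2 ratio of *Egr1* was 1.48 (SE 0.23, 95% interval 0.89 to 2.07, Benjamini-Hochberg adjusted p = 0.0311 in limma), and its p was at rank 432 of 11958. Over 15 alternatives the ratio ran from 1.12 to 1.76 and passed in 10. The call was lost without Met-low replicate 1 (1.53, adjusted p = 0.0624), with Met-low replicate 2 left out (1.43, adjusted p = 0.0586), with the 75th percentile over detected probes (1.33, adjusted p = 0.0563), with every probe as its own row (adjusted p = 0.0596) and with no filter on dim probes (adjusted p = 0.150).

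*Ier2* encodes a small nuclear protein that is induced by serum and growth factors. Its probe (NM_010499) had intensities of 240 and 440 in Met-low and of 364 and 509 in Met-high cells. The log2 signals were -1.97, -1.60, -1.24 and -1.13, and neither Met-high array fell among the Met-low arrays. Means were -1.79 ± 0.27 and -1.18 ± 0.08 (SD, n = 2). The log2 ratio of *Ier2* was 0.60 (95% interval 0.11 to 1.09), with an adjusted p of 0.136 from limma (0.0247 unadjusted). Over the alternatives its ratio ran from 0.41 to 0.79.

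**Figure D4:**
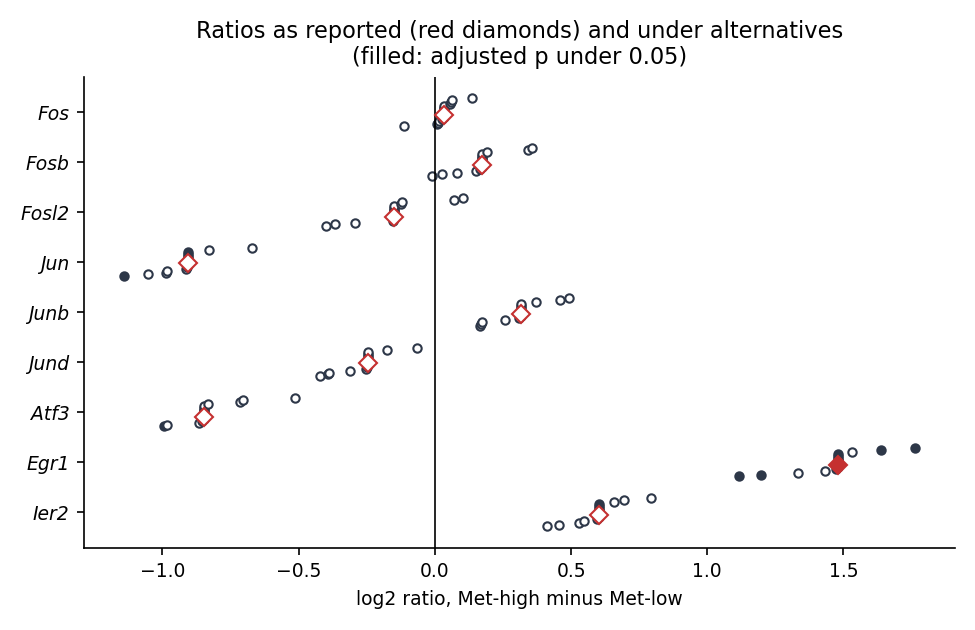
Log2 ratio of Met-high minus Met-low (horizontal axis) of the 9 genes tested, with the reported value as a red diamond and each alternative of scaling, background, filter, probe rule, model or left-out array as a circle, filled where the adjusted p was under 0.05. *Jun* and *Atf3* stay below 0 and *Egr1* and *Ier2* above 0 under every alternative shown, while *Fos*, *Fosb* and *Fosl2* have values on both sides.

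By Euclidean distance between log2 profiles over the 4 arrays, each centred on its own mean, the nearest genes to *Egr1* were *Il4i1* (0.18), *Slc2a4* (0.19) and *Fads2* (0.24), and 45 genes lay within 0.5. For *Jun* they were *Lrrc58* (0.09), *Mfsd8* (0.09) and *Kdm5a* (0.10), with 602 genes within 0.5. For *Fos*, whose profile was nearly flat, they were *Psmc3* (0.01), *Dlat* (0.02) and *Anxa4* (0.03), with 6829 genes within 0.5. With 4 arrays these distances are a description of likeness only.

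Among 40 other immediate early genes, 33 were tested, of which 3 were called higher in Met-low cells and 0 called higher in Met-high cells (9.09% called, against 5.77% of all genes tested). Their mean was higher in Met-low cells for 19 and in Met-high cells for 14, against 4839 and 7119 of 11958 genes tested. Their median log2 ratio was -0.06, against 0.10 for all genes tested. *Btg2*, which restrains proliferation, had log2 signals of -2.003 and -2.056 in Met-low and -4.40 and -4.13 in Met-high cells, and the log2 ratio was -2.23 (SE 0.17, adjusted p = 0.00749). *Plk2*, a polo-like kinase induced by serum, stood at -2.19 and -2.22 in Met-low and at -4.39 and -4.20 in Met-high cells, and the log2 ratio was -2.09 (SE 0.16, adjusted p = 0.00761). Both genes kept their call without any 1 array, and normexp background correction gave ratios of -1.26 and -1.07. *Gadd45b*, a stress response gene, had a log2 ratio of -1.21 (SE 0.18, adjusted p = 0.0284), which did not pass when Met-low replicate 1, Met-low replicate 2 or Met-high replicate 1 was left out (adjusted p up to 0.0792). Of the 7 genes not tested, *Egr2*, *Egr3*, *Egr4*, *Arc*, *Nfkbiz* and *Tnfaip3* showed no signal well above background on any array and *Zfp36* did on 1. These 7 are named after their values were seen.

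Other leucine zipper factors, only some of which pair with Fos and Jun or share their sites, formed a further list. Of its 24 genes 23 had a probe and 20 were tested. Limma called 2 higher in Met-low cells and 0 higher in Met-high cells (against 3.82% and 1.95% of all genes tested). The mean was higher in Met-low cells for 16 of the 20, against 4839 of 11958 genes tested. Both Met-low arrays lay above both Met-high arrays for 9 and the opposite order held for 0 (against 22.6% and 35.8% of all genes tested). The median log2 ratio was -0.19, against 0.10 for all genes tested. *Atf5*, a factor of the stress response and of cell survival, had log2 signals of 6.18 and 5.91 in Met-low and of 4.65 and 4.83 in Met-high cells, and the log2 ratio was -1.30 (SE 0.18, adjusted p = 0.0236). That call was lost without Met-low replicate 1 (adjusted p = 0.0778). *Atf6*, a sensor of stress in the endoplasmic reticulum, had a log2 ratio of -0.87 (SE 0.15, adjusted p = 0.0411) and lost its call whether Met-low replicate 1, Met-low replicate 2, Met-high replicate 1 or Met-high replicate 2 was left out (adjusted p between 0.110 and 0.158).

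Upstream regulators, namely serum response factor, its ETS and myocardin-related partners, the MAP kinases and the proteins that restrain or degrade immediate early factors, numbered 28. Of these 25 were tested. The mean was higher in Met-high cells for 17 and in Met-low cells for 8, against 7119 and 4839 of 11958 genes tested. Their median log2 ratio was 0.17, against 0.10 for all genes tested. With the 75th percentile over detected probes these became 13 of 25 with the higher mean in Met-high cells and a median of 0.02, against -0.05 for all genes tested. Limma called 1 of the 25, against 5.77% of all genes tested. *Fbxw7*, the part of a ubiquitin ligase that recognises Jun among other proteins, had log2 signals of -0.19 and -0.05 in Met-low and of -1.14 and -1.03 in Met-high cells, and the log2 ratio was -0.96 (SE 0.16, adjusted p = 0.0363). It did not pass when Met-low replicate 1, Met-low replicate 2, Met-high replicate 1 or Met-high replicate 2 was left out (adjusted p between 0.0875 and 0.128).

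Of 29 genes known as targets of AP-1 or Egr1, 18 were tested, and their median log2 ratio was -0.31. Of these 3 were called higher in Met-low cells and 2 called higher in Met-high cells (27.8% called, against 5.77% of all genes tested). Like the other lists, this one was drawn with earlier results of these data known, so the share called is a description and not a test. *Pdgfa*, which encodes a growth factor of mesenchymal cells, had a log2 ratio of -2.14 (SE 0.24, adjusted p = 0.0150), and *Cdkn1a*, the cell cycle inhibitor p21, one of -1.54 (SE 0.19, adjusted p = 0.0183). On the Met-high side, *Timp1*, an inhibitor of metalloproteinases, had log2 signals of -1.94 and -1.03 in Met-low and of 0.79 and 1.06 in Met-high cells, and the log2 ratio was 2.41 (SE 0.33, adjusted p = 0.0222). *Tgfb1*, which encodes a ligand of the TGF-beta family, had a log2 ratio of 1.55 (SE 0.17, adjusted p = 0.0132). These 4 kept their call whichever array was left out. *Vegfa*, which encodes the main angiogenic growth factor, had a log2 ratio of -0.95 (SE 0.16, adjusted p = 0.0395), and did not pass without Met-low replicate 1, Met-low replicate 2, Met-high replicate 1 or Met-high replicate 2 (adjusted p between 0.0593 and 0.146). With a gene's probes averaged, the ratio of *Vegfa* was -0.84 (adjusted p = 0.132 in limma) and that of *Cdkn1a* was -2.13. With every probe as its own row the adjusted p of *Vegfa* was 0.0668. *Col1a2*, the 1 fibroblast marker tested, was higher in Met-low cells, as given above, and a link with these targets was not tested.

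**Figure D5:**
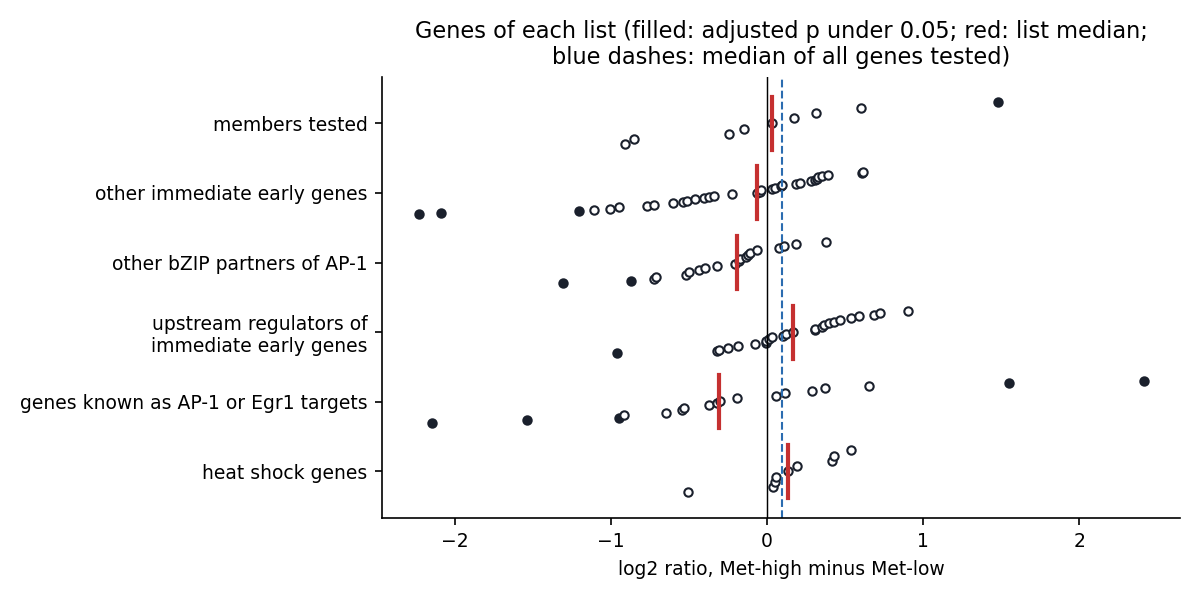
Log2 ratio of Met-high minus Met-low (horizontal axis) for each gene tested in the members and in 5 lists of related genes (vertical axis), filled where the adjusted p was under 0.05, with the median of each list in red and that of all genes tested, 0.10, as a dashed line. The AP-1 or Egr1 targets hold 5 filled points, from *Pdgfa* at -2.14 to *Timp1* at 2.41, and the heat shock genes hold 0.

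Heat shock genes, a sign of stress from handling as well as a response of their own, gave 0 calls in limma among 9 tested of 11, and 2 at an unadjusted p under 0.05 (against 5.77% and 26.2% of all genes tested), with *Hspa1a* not well above background on any array. Of the 9, 8 had the higher mean in Met-high cells, against 7119 of 11958 genes tested. The median log2 ratio was 0.14, against 0.10 for all genes tested. With the 75th percentile over detected probes these became 4 of 9 and -0.01, against a median of -0.05 for all genes tested. *Bag3* had a log2 ratio of 0.54 (SE 0.16, adjusted p = 0.120) and *Hsp90aa1* one of -0.51 (SE 0.16, adjusted p = 0.132), and these are the 2 largest ratios of the list.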

How the data were processed

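RNA of 4 samples, 2 of Met-low and 2 of Met-high B16-F10 cells grouped by the labels, was hybridised by the authors to 1-colour Agilent arrays. The deposited scanner output holds a background-corrected Cy3 intensity for each spot, with other columns of flags, 0 or 1. Per the file headers it came from Feature Extraction 11.0.1.1, while the submitters' processing notes name 10.7.3.1. The deposited log2 table, set against the scanner values of 39429 probes, holds log2 intensities scaled to the 75th percentile per array and centred on the probe's median over arrays, with column medians of 0.149, -0.035, 0.0352 and -0.117, slopes between 0.9989 and 1.001 and 93% to 99.5% of probes within 0.01. A Lowess step is listed in the methods, and no trace of it was seen.

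From the scanner output, intensities were floored at 0.01 (0 spots changed), divided by the 75th percentile of the array over spots that are not controls, and taken to log2. Spots flagged as outliers (207 to 232 per array) were left out and spots of a probe averaged. Of 39429 probes, 27427 matched a RefSeq symbol by accession and 12002 were left out of counts of genes. The brightest probe over all arrays stood for each gene. Where both arrays of a population or more gave a signal well above background the gene was kept, and these 11958 genes were fitted in limma 3.58.1 (lmFit, eBayes; R 4.3.3), two-sided, with Benjamini-Hochberg adjustment over all of them and a threshold of 0.05. No gene was dropped for a flagged spot where each population kept an array. With 2 arrays against 2, a permutation of arrays cannot reach p under 0.05, so none is given. The fit was checked on simulated data.

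Alternatives were normexp (offset 50, on median intensities), quantile normalization, the 75th percentile over detected probes only, no filter, a filter on all 4 arrays, no removal of flagged spots, probes averaged by gene, each probe as its own row, the authors' log2 table, each array left out, a replicate block, a mean-variance trend and a 2-fold threshold. Where 1 array was left in a population, it was assumed to vary like the other population. Genes named are all members, in each related list those at an adjusted p under 0.05 (the 5 with the largest ratio where more pass, the 2 largest where none passes), and the 3 nearest profiles of *Fos*, *Jun* and *Egr1*. From the list of targets 1 gene is not reported here and was left out of its counts. Members, lists and tests were chosen with earlier results of these data known. Motifs were searched with Python 3.11.15 on both strands of RefSeq windows of 250 bases, and figures made with matplotlib 3.10.9.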

Additional observations from a re-analysis of the deposited data

How the results depend on the processing

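Of the 10 genes, 1 (*Egr1*) was called in the fit as reported. The count was 2 with normexp background correction (*Jun* and *Egr1*), 2 with genes detected on all 4 arrays (*Atf3* and *Egr1*), 2 with a mean-variance trend (*Jun* and *Egr1*), 0 with no filter on dim probes and 0 with every probe as its own row. With the 75th percentile over detected probes it was 1, *Atf3* in place of *Egr1*. Leaving out each array gave 0 to 2 members: none (0) without Met-low replicate 2, 1 when Met-low replicate 1 was left out, *Jun* and *Egr1* when Met-high replicate 1 was left out, and *Egr1* when Met-high replicate 2 was. The 1 without Met-low replicate 1 was *Fosl1*, which entered that fit through the single array where it is bright, so it says nothing of a difference, and *Egr1* was not called there. Over all genes 690 were called, 7 with no filter (2660 at an unadjusted p under 0.05) and 636 to 890 with an array left out. Of the calls 66.2% were higher in Met-low cells, 81% with the 75th percentile over detected probes and 78.8% with every probe as its own row. In the related lists 11 genes were called, 0 with no filter and 7 to 10 with an array left out, the 7 without Met-high replicate 1. The sign turned for *Fos* (-0.11 with the 75th percentile over detected probes), for *Fosb* (-0.012 to 0.36 with an array left out) and for *Fosl2* (-0.40 to 0.10 with an array left out). The rows tested were 20832 with no filter and 19796 with every probe as its own row, against 11958 as reported. In the same order, 2660, 4451 and 3136 rows had an unadjusted p under 0.05 in limma. The cause of the fewer calls was not tested.

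With the replicate number as a block, 3552 genes, 4 members (*Atf3*, *Jun*, *Egr1* and *Ier2*) and 37 genes of the related lists were called, and 44.4% of the calls were higher in Met-low cells. Over genes, the difference between replicates 1 and 2 correlated between the populations (r = 0.54), but the labels do not say that a number marks a shared batch, and with 2 pairs the samples may share only a number. Signal over background limits *Fosl1*, *Junb* and the second *Fosl2* probe.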
